A study of Mus musculus with 6 samples.

Results

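Transcript levels of 88 genes that prepare and start protein synthesis were examined in bone marrow stromal cells, out of 11896 named genes in the deposited table. They were taken by a rule on gene names. They are the 20 cytosolic aminoacyl-tRNA synthetases, Atf4 with 15 of its known target genes, and 52 genes whose symbols begin with Eif followed by a digit, which are mostly translation initiation factors. Eif2ak3 was left out of the last class by the rule and is given among the linked genes. Cbs, Eif4e1b and Eif2s3y, which the rule or the Eif symbols would also take in, were not among the named genes of the deposited table.

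Aminoacyl-tRNA synthetases join each amino acid to its tRNA, and initiation factors bring the initiator tRNA, the ribosome and the capped mRNA together. Under amino acid shortage or other stress, kinases phosphorylate the alpha subunit of eIF2, which slows initiation in general but raises translation of the mRNA for ATF4, a transcription factor. ATF4 then induces genes for amino acid synthesis, amino acid import, tRNA charging and stress signalling, many of them through a composite DNA site called the C/EBP-ATF response element. In the osteoblast lineage ATF4 is known as a regulator of amino acid import and of collagen synthesis.

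The data are RNA-seq of 3 Pth1rΔNLS and 3 WT libraries from primary mouse bone marrow stromal cells, the marrow cells from which osteoblasts and fat cells arise. Pth1r encodes the receptor for parathyroid hormone, and the allele is named for its missing nuclear localisation signal. The series design text calls the Pth1rΔNLS animals heterozygous. The labels and design text do not state the age or sex of the mice, how cells were isolated or cultured, or whether each library had its own mouse. A p-value here thus reflects the spread between these 6 samples alone, and some of that spread may be technical. Levels are FPKM, fragment numbers scaled by transcript length and by the fragments mapped in each library, summed over the listed transcripts of each gene, so they are on a per-length scale on which genes can be compared.

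Pth1r itself was listed at 1.91, 1.72 and 2.99 FPKM in Pth1rΔNLS libraries 1, 2 and 3, against 7.98, 4.72 and 6.24 FPKM in WT libraries 1, 2 and 3, and a sum over transcripts does not measure the changed stretch of the gene. The depth in reads is unknown, and 11810 to 11834 genes were above 0 in each library. Markers of other cell types moved with the genotype. Of 12 macrophage markers 9 were higher, with a summed level of 6593 to 6902 FPKM in Pth1rΔNLS libraries and 4718 to 4993 FPKM in WT libraries. All 10 tested stromal and osteoblast markers were lower, with summed levels of 1487 to 1596 FPKM in Pth1rΔNLS libraries and 3301 to 3726 FPKM in WT libraries, and the eleventh, Bglap, was below the filter of a mean of 1 FPKM. In both genotypes the summed macrophage markers stood above the summed stromal and osteoblast markers. Lyz2 alone, a macrophage marker, averaged 2811 FPKM in Pth1rΔNLS libraries and 2231 FPKM in WT libraries. Sparc, a stromal marker, averaged 867 FPKM in Pth1rΔNLS libraries and 1608 FPKM in WT libraries. The lists hold different genes, so their sums do not measure the share of each cell type. Proliferation markers summed to 104 to 105 FPKM in Pth1rΔNLS libraries and 55.2 to 60.1 FPKM in WT libraries, and 5 of 6 were higher. Endothelial markers summed to 4.17 to 4.91 FPKM in Pth1rΔNLS libraries and 6.69 to 7.16 FPKM in WT libraries. None of the 4 erythroid and 3 B cell markers searched for was among the named genes of the deposited table, so no level is given. Mitochondrially encoded transcripts took 10.6 to 18.2% of FPKM in Pth1rΔNLS libraries and 6.48 to 12.8% in WT libraries. The part of these shifts in the results on translation genes was not tested, and in bulk RNA fewer cells of a type and less RNA per cell cannot be told apart.

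The DNA upstream of members is shown because ATF4 is known to act there. The core of the C/EBP-ATF response element was searched as TGATGNAAN on both strands in RefSeq windows of 300 bases that run from 250 bases before to 50 after each gene's start (build GRCm38.p6). It was found in 11 of the 69 members that had a window, and in 1299 of all 32851 windows, or 3.95%. The units differ, since a member counted if any of its windows held the core, and the 69 members had 83 windows. By class the core was in the windows of 5 of 15 ATF4 class genes, 5 of 13 synthetases and 1 of 41 initiation factor genes, and 19 members had no window in the table. Chac1 and Pycr1 are printed as far as the first annotated exon, and Asns, Got1, Tars and Gars as the match with 10 bases on each side. Each sequence reads 5′ to 3′ on the gene's own strand, and capitals mark the match.
Chac1, plus strand, chr2:119350992-119351228: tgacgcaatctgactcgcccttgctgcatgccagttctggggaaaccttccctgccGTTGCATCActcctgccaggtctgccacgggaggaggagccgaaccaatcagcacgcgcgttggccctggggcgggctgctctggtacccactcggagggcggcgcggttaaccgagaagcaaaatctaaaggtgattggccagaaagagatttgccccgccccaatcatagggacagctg
Pycr1, minus strand, chr11:120643770-120643998: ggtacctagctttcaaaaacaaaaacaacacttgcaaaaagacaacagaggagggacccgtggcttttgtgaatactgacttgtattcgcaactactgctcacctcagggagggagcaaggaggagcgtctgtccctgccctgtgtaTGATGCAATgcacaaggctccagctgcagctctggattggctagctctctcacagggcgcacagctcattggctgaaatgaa
Asns, minus strand, chr6:7693214-7693242: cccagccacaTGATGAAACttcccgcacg
Got1, minus strand, chr19:43524690-43524718: cattgcattgGTTGCATCAtacaagcctc
Tars, minus strand, chr15:11399656-11399684: caggagtcccGTTGCATCAgctggttagc
Gars, plus strand, chr6:55037960-55037988: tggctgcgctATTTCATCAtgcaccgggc
The match began 194 bases before the RefSeq start of Chac1, 103 bases before that of Pycr1 and 103 bases before that of Got1. It began 23 bases before the start of Asns, 16 before that of Tars and 31 before that of Gars, and in Asns it lay inside an exon of the GENCODE annotation. Of the 12 members called as changed that had a window, 3 held the letters, namely Chac1, Pycr1 and Asns. The rest of the 11 members that held them, Trib3, Got1, Eif2s3x, Gars, Iars, Tars, Aars and Yars, were not called. A match describes letters in a window and shows no binding, and a window without one says nothing of ATF4.

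The comparison asked how transcript levels differ when the receptor carries the ΔNLS allele. Of the 87 members with a mean of at least 1 FPKM, 2 were higher and 12 were lower in Pth1rΔNLS cells, and 73 did not pass an adjusted p of 0.05 (limma on log2(FPKM + 1), Benjamini-Hochberg adjustment over all 10905 tested genes). These 14 are 16.1% of the tested members, against 17.3% of all tested genes, so the members together were called about as often as genes in general. The shares by direction were 2.30% of members higher, against 6.94% of all genes, and 13.8% lower, against 10.4% of all genes. Ranges did not overlap between genotypes for 25 of the 87, or 28.7%, against 36.6% of all tested genes. Atf4 and its targets had 0 higher and 7 lower of 16, the synthetases 0 higher and 1 lower of 20, and the initiation factor genes 2 higher and 4 lower of 51. Median log2 fold changes were -0.31, -0.16 and 0.01 in that order of classes, against -0.01 for all tested genes, and the classes were not tested against each other. With 3 libraries against 3, an exact two-sided permutation test of a single gene has 20 assignments and cannot give a p below 0.1.

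**Figure D1:**
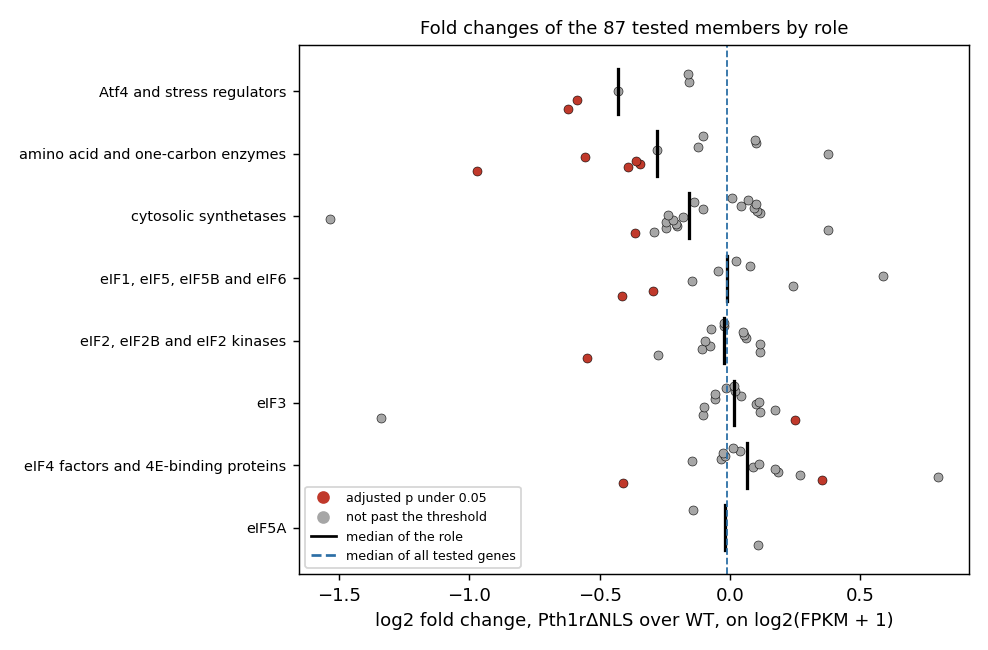
Each point is 1 of the 87 tested members, placed by its log2 fold change, Pth1rΔNLS over WT on the log2(FPKM + 1) scale, in the line of its role; red points passed an adjusted p of 0.05, black bars are role medians and the dashed line is the median of all tested genes (-0.01). The red points of both upper lines all lie left of 0, and those of the initiation factor lines lie on either side.

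Atf4 and the genes it is known to induce were lower or not called. Of the 16 genes, 7 fell in Pth1rΔNLS cells, namely Pycr1, Chac1, Ddit4, Cth, Mthfd2, Aldh18a1 and Asns, and none rose (43.8% lower, against 10.4% of all tested genes). This is a description, since the class was chosen with earlier results known. Log2 fold changes were below 0 for 13 of the 16, against 51.7% of all tested genes, and at an unadjusted limma p under 0.05 there were 0 higher and 8 lower. The summed level of the 16 was 243 to 276 FPKM in Pth1rΔNLS libraries and 277 to 324 FPKM in WT libraries, so the sums did not overlap, although the highest Pth1rΔNLS library and the lowest WT library nearly met. In the same libraries, summed stromal and osteoblast markers were lower and macrophage markers higher, as given above, and their part in these counts was not tested. The count of 7 fell to between 1 and 4 when 1 library was left out, with 2 without Pth1rΔNLS 1, 3 without Pth1rΔNLS 2, Pth1rΔNLS 3 or WT 1, 4 without WT 2 and 1 without WT 3.

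Atf4 itself (ENSMUSG00000042406.8, chr15:80255184-80257541, mm10) was one of the more abundant members. It had 57.3, 61.0 and 62.8 FPKM in Pth1rΔNLS libraries, against 68.2, 60.9 and 74.0 FPKM in WT libraries. WT library 2 lay inside the Pth1rΔNLS range and the other WT libraries above it. Its log2 fold change came to -0.16 (SE 0.09, 95% interval -0.37 to 0.05, limma adjusted p = 0.285), so no difference in the transcript was called. ATF4 is controlled mainly at translation, which RNA-seq does not measure.

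**Figure D2:**
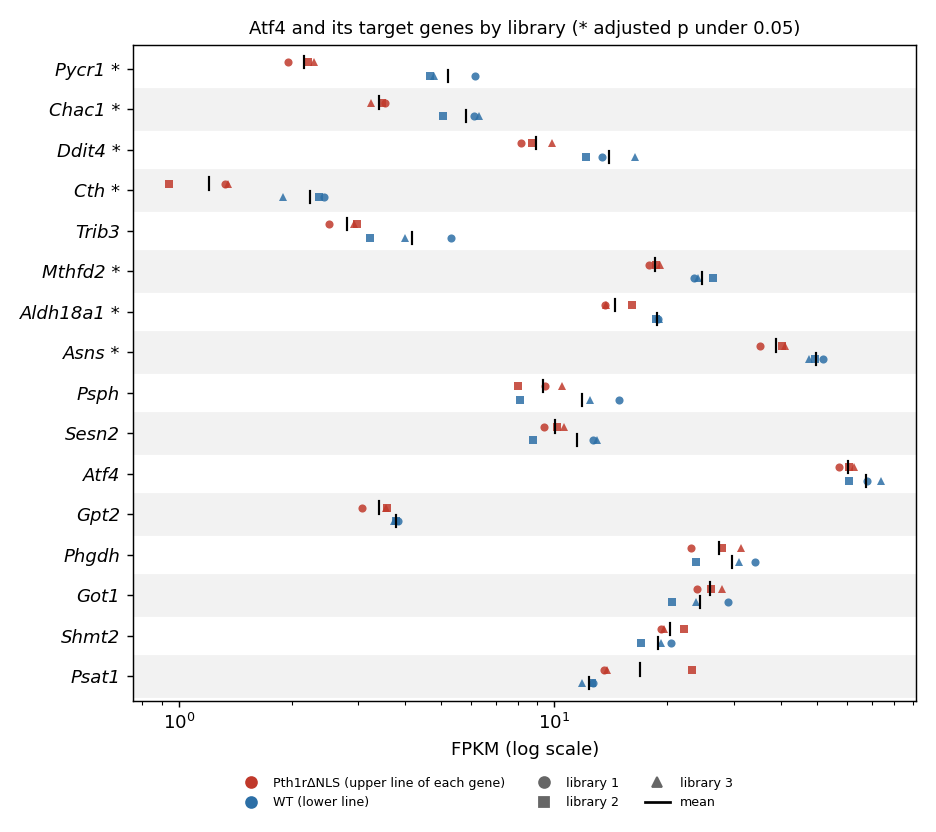
FPKM on a log axis for Atf4 and its 15 target genes, with Pth1rΔNLS libraries in red on the upper line of each gene, WT libraries in blue on the lower line, marker shape for the library number and a black bar for the mean of 3 libraries. Asterisks mark the 7 genes with an adjusted p under 0.05, in which every red point lies left of every blue one; Psat1, at the bottom, has a Pth1rΔNLS mean of 16.9 FPKM that rests on library 2.

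Of the 5 genes in the role of Atf4 and stress regulators, Chac1 and Ddit4 fell (40% lower, against 10.4% of all tested genes). Chac1, whose enzyme degrades glutathione (chr2:119351229-119354381), had 3.54, 3.48 and 3.25 FPKM in Pth1rΔNLS libraries, against 6.11, 5.05 and 6.31 FPKM in WT libraries. The ranges were apart, with a log2 fold change of -0.62 (SE 0.11, limma adjusted p = 0.0131), and the call was lost without Pth1rΔNLS 3 (adjusted p = 0.0503) or WT 3 (adjusted p = 0.0535). Ddit4, an inhibitor of the growth kinase complex mTORC1 (chr10:59949669-59951834), had 8.13, 8.73 and 9.86 FPKM in Pth1rΔNLS libraries, against 13.4, 12.1 and 16.4 FPKM in WT libraries. All 3 WT libraries were higher, and its log2 fold change came to -0.59 (SE 0.13, limma adjusted p = 0.0269). The Ddit4 call was lost without Pth1rΔNLS 1 (adjusted p = 0.0854), Pth1rΔNLS 2 (0.0859), WT 1 (0.0687) or WT 3 (0.0680), and held without Pth1rΔNLS 3 or WT 2. Trib3, a pseudokinase that is known to restrain ATF4, had 2.504, 2.99 and 2.92 FPKM in Pth1rΔNLS libraries, against 5.31, 3.24 and 3.9997 FPKM in WT libraries. Its ranges did not overlap either, but WT library 2 was close to the Pth1rΔNLS libraries, and it was not called (log2 fold change -0.43, limma adjusted p = 0.136). Sesn2, which signals leucine shortage to mTORC1, had 9.36, 10.2 and 10.6 FPKM in Pth1rΔNLS libraries, against 12.6, 8.79 and 13.0 FPKM in WT libraries, with WT library 2 the lowest of all 6 (adjusted p = 0.538).

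Of the 11 enzymes of amino acid and one-carbon metabolism, 5 fell and none rose (45.5% lower, against 10.4% of all tested genes). The largest difference in this class was in Pycr1, which makes proline from pyrroline-5-carboxylate in mitochondria (ENSMUSG00000025140.15, chr11:120635712-120643769). Pycr1 had 1.96, 2.20 and 2.29 FPKM in Pth1rΔNLS libraries, against 6.16, 4.66 and 4.79 FPKM in WT libraries. The means were 2.15 ± 0.174 FPKM in Pth1rΔNLS libraries and 5.20 ± 0.832 FPKM in WT libraries (SD, n = 3 each), a ratio of 0.414. Its log2 fold change came to -0.97 (SE 0.13, 95% interval -1.28 to -0.66, limma adjusted p = 0.00444). This call held in each of the 6 fits that left out 1 library, with adjusted p between 0.0103 and 0.0224. Aldh18a1, which makes the same pyrroline-5-carboxylate from glutamate (chr19:40550257-40588463), had 13.6, 16.0 and 13.7 FPKM in Pth1rΔNLS libraries, against 18.8, 18.7 and 18.9 FPKM in WT libraries. The WT libraries were close together (SD 0.133 FPKM), and the log2 fold change came to -0.36 (SE 0.09, limma adjusted p = 0.0344). Among those 6 fits the call held without Pth1rΔNLS 2 (adjusted p = 0.0361) and was lost in the others (0.0653 to 0.110). Both proline-pathway enzymes in the class were thus lower, and proline is a major residue of collagen.

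Mthfd2, a mitochondrial enzyme of the folate cycle (chr6:83305691-83325908), had 17.9, 18.7 and 19.1 FPKM in Pth1rΔNLS libraries, against 23.6, 26.4 and 24.1 FPKM in WT libraries. The libraries of each genotype were close together and the ranges apart, with a log2 fold change of -0.39 (SE 0.08, limma adjusted p = 0.0167). Adjusted p lay between 0.0335 and 0.0596 when 1 library was left out, and was above 0.05 without Pth1rΔNLS 1, Pth1rΔNLS 2 or WT 3. Asns, asparagine synthetase and the best known ATF4 target (ENSMUSG00000029752.12, chr6:7675169-7693254), had 35.2, 40.3 and 41.2 FPKM in Pth1rΔNLS libraries, against 51.8, 49.3 and 47.7 FPKM in WT libraries. Its means were 38.9 ± 3.22 FPKM in Pth1rΔNLS libraries and 49.6 ± 2.03 FPKM in WT libraries (SD, n = 3 each), with a log2 fold change of -0.35 (SE 0.08, limma adjusted p = 0.0335). The call was lost in every fit that left out 1 library (adjusted p 0.0602 to 0.0998). With the most abundant listed transcript in place of the sum, the log2 fold change turned to 0.32. The most abundant listed transcript, Asns-201, had 34.5, 40.3 and 41.2 FPKM in Pth1rΔNLS libraries, against 14.3, 43.1 and 46.3 FPKM in WT libraries. The second, Asns-202, had 0, 0.0413 and 0 FPKM in Pth1rΔNLS libraries, against 37.4, 6.27 and 0 FPKM in WT libraries. The transcripts share most of their sequence, and an exact 0 can be a failed division of reads between them.

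Cth, which makes cysteine from cystathionine (chr3:157894248-157925077), was a low gene with 1.32, 0.939 and 1.35 FPKM in Pth1rΔNLS libraries, against 2.44, 2.37 and 1.90 FPKM in WT libraries. The ranges did not overlap with a log2 fold change of -0.55 (SE 0.14, limma adjusted p = 0.0370), a call lost without any 1 library (adjusted p 0.0564 to 0.108). No enzyme of serine synthesis was called. Phgdh, its entry enzyme, had 23.2, 27.9 and 31.4 FPKM in Pth1rΔNLS libraries, against 34.3, 23.8 and 31.0 FPKM in WT libraries (limma adjusted p = 0.724). Psat1, the second enzyme, had 13.6, 23.2 and 13.8 FPKM in Pth1rΔNLS libraries, against 12.7, 12.6 and 11.8 FPKM in WT libraries. It is the single ATF4 class gene whose Pth1rΔNLS libraries all lay above the WT libraries, but library 2 stood far above the other Pth1rΔNLS libraries and the gene was not called (log2 fold change 0.38, SE 0.20, limma adjusted p = 0.268). Psph, the last enzyme, had 9.44, 8.02 and 10.5 FPKM in Pth1rΔNLS libraries, against 14.9, 8.09 and 12.5 FPKM in WT libraries (limma adjusted p = 0.439). Its transcript Psph-202 had 7.08, 0 and 5.82 FPKM in WT libraries, and an exact 0 can be a failed division of reads. Psph-201 had 5.20, 4.27 and 5.89 FPKM in Pth1rΔNLS libraries, against 7.79, 8.09 and 6.64 FPKM in WT libraries. Those ranges were apart, but Psph-201 was not called (limma adjusted p = 0.154 over transcripts). Shmt2, which passes the one-carbon unit of serine to folate in mitochondria, had log2 fold change 0.10 (95% interval -0.14 to 0.34), and Got1, a cytosolic transaminase, had 0.10 (95% interval -0.22 to 0.41). Gpt2, a mitochondrial transaminase, had 3.08, 3.58 and 3.55 FPKM in Pth1rΔNLS libraries, against 3.83, 3.78 and 3.75 FPKM in WT libraries. Its ranges were apart by little and it was not called (limma adjusted p = 0.467).

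The libraries of a genotype were not alike for this class. WT library 2 was the lowest WT library for 11 of the 16 genes, 68.8%, against 43.0% of all tested genes. Pth1rΔNLS library 1 was the lowest Pth1rΔNLS library for 13 of 16, 81.3%, against 46.0% of all tested genes. WT library 2 also had the highest mitochondrially encoded share of the WT libraries, 12.8%, and Pth1rΔNLS library 1 the highest of the Pth1rΔNLS libraries, 18.2%. The part of that share in these levels was not tested. Scaling to the total without mitochondrially encoded genes left 6 of the 7 calls. Leaving out both replicates 1, the Pth1rΔNLS library of highest share and the WT library of lowest share, left 1 of the 7 calls, in a fit of 4 libraries that called 5.65% of all tested genes.

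Of the 20 synthetases, 1 fell, Dars, and none rose (5%, against 17.3% of all tested genes in either direction). At an unadjusted limma p under 0.05 there were 1 higher and 4 lower. Dars, which charges aspartate (ENSMUSG00000026356.15, chr1:128363707-128417368), had 44.0, 44.6 and 45.6 FPKM in Pth1rΔNLS libraries, against 59.1, 62.5 and 52.6 FPKM in WT libraries. Its means were 44.7 ± 0.844 FPKM in Pth1rΔNLS libraries and 58.1 ± 5.02 FPKM in WT libraries (SD, n = 3 each), with no overlap and a log2 fold change of -0.37 (SE 0.08, limma adjusted p = 0.0251). The call held without WT 2 (adjusted p = 0.0494) or WT 3 (0.0267) and was lost without Pth1rΔNLS 1 (0.0790), Pth1rΔNLS 2 (0.0824), Pth1rΔNLS 3 (0.0696) or WT 1 (0.0778). Summed over the class, synthetases had 612, 653 and 636 FPKM in Pth1rΔNLS libraries, against 743, 664 and 701 FPKM in WT libraries. The WT sums were all higher, with WT library 2 near the Pth1rΔNLS libraries. In the same libraries summed macrophage markers were higher and stromal and osteoblast markers lower, and their part was not tested.

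**Figure D3:**
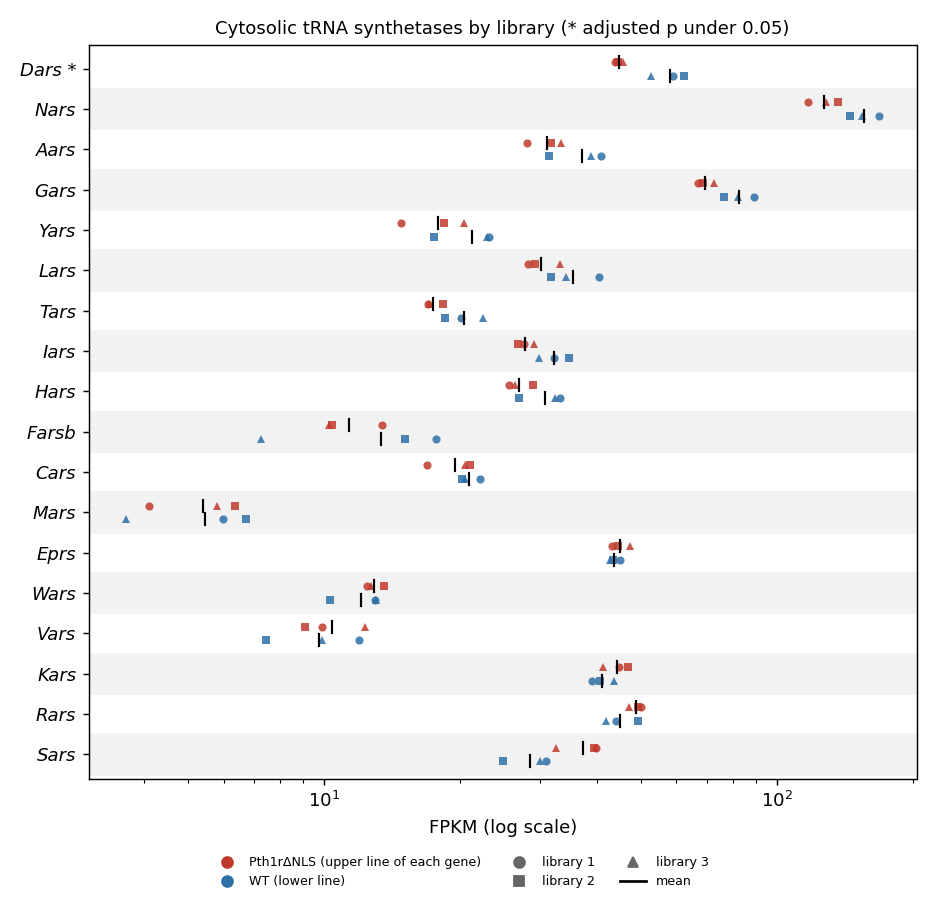
FPKM on a log axis for 18 of the 20 cytosolic synthetases, with Pth1rΔNLS libraries in red on the upper line, WT libraries in blue on the lower line, marker shape for the library number and a black bar for the mean of 3 libraries. Farsa and Qars, which fall near 0 in some libraries, are not drawn; Dars carries the one asterisk, and Sars, at the bottom, is the one gene whose red points all lie right of the blue ones.

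Apart from Dars, 5 synthetases had ranges that did not overlap, of which Nars, Gars, Iars and Tars were lower and Sars was higher, and none of these 5 passed the threshold. With Dars that makes 6 of 20 whose ranges were apart, against 36.6% of all tested genes. Nars, which charges asparagine and was the most abundant synthetase (chr18:64499647-64516652), had 117, 137 and 128 FPKM in Pth1rΔNLS libraries, against 168, 145 and 154 FPKM in WT libraries. Its log2 fold change came to -0.29 (SE 0.09, limma adjusted p = 0.0715). Gars, the glycine enzyme (chr6:55038007-55079500), had 66.9, 68.8 and 72.7 FPKM in Pth1rΔNLS libraries, against 89.1, 76.5 and 82.1 FPKM in WT libraries, with a log2 fold change of -0.24 (SE 0.08, adjusted p = 0.0827). Glycine is the most common residue of collagen. Sars, the serine enzyme, had 39.9, 39.5 and 32.5 FPKM in Pth1rΔNLS libraries, against 30.9, 24.8 and 29.9 FPKM in WT libraries. It had the highest log2 fold change of the class, 0.38 (SE 0.12, limma adjusted p = 0.0825), which turned to -0.11 when its most abundant listed transcript stood for the gene. The enzymes of isoleucine (Iars) and threonine (Tars) had log2 fold changes of -0.21 each, with limma adjusted p of 0.140 and 0.181, and that of Iars turned to 0.19 with its most abundant transcript. Eprs, the enzyme joined for glutamate and proline, had 43.2, 44.5 and 47.4 FPKM in Pth1rΔNLS libraries, against 45.03, 43.4 and 42.9 FPKM in WT libraries. Those ranges overlapped, and its log2 fold change was 0.04 (95% interval -0.12 to 0.20).

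The other synthetases were not called, and their values were mixed. Alanine (Aars, -0.24), leucine (Lars, -0.22), histidine (Hars, -0.18), tyrosine (Yars, -0.24) and cysteine (Cars, -0.10) enzymes had log2 fold changes below 0. Arginine (Rars, 0.11), lysine (Kars, 0.10), tryptophan (Wars, 0.09), valine (Vars, 0.10) and methionine (Mars, 0.01) enzymes had values above 0. Both subunits of the phenylalanine enzyme were uneven between libraries. Farsa, the alpha subunit, was listed at 0.223, 0 and 0.0902 FPKM in Pth1rΔNLS libraries, against 0.120, 1.31 and 11.6 FPKM in WT libraries, the one member at 0 in any library. Farsb, the beta subunit with which it pairs, averaged 11.4 ± 1.77 FPKM in Pth1rΔNLS libraries and 13.3 ± 5.42 FPKM in WT libraries (SD, n = 3 each). Qars, the glutamine enzyme, was listed at 8.48, 9.15 and 0.00482 FPKM in Pth1rΔNLS libraries, against 7.204, 0.232 and 7.29 FPKM in WT libraries, so 1 library of each genotype was near 0. A value at or near 0 can be a failed estimate for the listed transcripts, so these differences give no direction.

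Initiation factor genes were the most abundant class, with a median of mean levels of 38.1 FPKM, against 29.5 FPKM for synthetases, 13.0 FPKM for the ATF4 class and 9.06 FPKM for all tested genes. Of the 51 tested, Eif3d and Eif4e2 rose and Eif1, Eif1a, Eif2b2 and Eif4a2 fell (11.8%, against 17.3% of all tested genes). At an unadjusted limma p under 0.05 there were 3 higher and 4 lower. Ranges were apart for 9 of the 51, 4 higher and 5 lower, against 36.6% of all tested genes. The class summed to 2562 to 2758 FPKM in Pth1rΔNLS libraries and 2530 to 2745 FPKM in WT libraries, and these sums overlapped. The highest mean levels were those of Eif5a (256 FPKM), Eif1 (169), Eif4g2 (152), Eif2s2 (146) and Eif3a (143), and none of these but Eif1 was called. The counts of 2 higher and 4 lower became 0 to 2 and 1 to 2 when 1 library was left out. None was higher without Pth1rΔNLS 1, Pth1rΔNLS 3 or WT 1, and 1 without Pth1rΔNLS 2 or WT 3. There was 1 lower without Pth1rΔNLS 1, Pth1rΔNLS 3 or WT 2, and 2 without Pth1rΔNLS 2, WT 1 or WT 3.

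Of the 8 genes in the group of eIF1, eIF5, eIF5B and eIF6, 2 fell (25%, against 17.3% of all tested genes called in either direction). Eif1, which guards the fidelity of start codon choice (ENSMUSG00000035530.13, chr11:100319885-100322096), had 150, 133 and 153 FPKM in Pth1rΔNLS libraries, against 210, 194 and 177 FPKM in WT libraries. Its means were 145 ± 10.8 FPKM in Pth1rΔNLS libraries and 194 ± 16.6 FPKM in WT libraries (SD, n = 3 each), with a log2 fold change of -0.41 (SE 0.09, limma adjusted p = 0.0267). The call held without WT 3 (adjusted p = 0.0400) and was lost in the other fits that left out 1 library (adjusted p 0.0565 to 0.0851). Its main transcript, Eif1-201, was also lower by itself, with 145, 127 and 131 FPKM in Pth1rΔNLS libraries, against 204, 190 and 172 FPKM in WT libraries (limma adjusted p = 0.0399 over transcripts). Eif1a, which works beside it on the small subunit (chr18:46597701-46616456), had 46.4, 44.9 and 46.0 FPKM in Pth1rΔNLS libraries, against 54.3, 61.7 and 53.6 FPKM in WT libraries. The ranges were apart, with a log2 fold change of -0.30 (SE 0.08, limma adjusted p = 0.0421), and the call was lost without any 1 library (adjusted p 0.0594 to 0.130). Its X-linked near-copy Eif1ax had 19.4, 18.1 and 17.03 FPKM in Pth1rΔNLS libraries, against 18.0, 19.96 and 18.4 FPKM in WT libraries (adjusted p = 0.754). The authors' counting could divide reads between these similar genes, so the split between them is uncertain. Eif5, the factor that makes eIF2 hydrolyse its GTP, had 52.4, 54.7 and 54.6 FPKM in Pth1rΔNLS libraries, against 23.0, 77.0 and 25.0 FPKM in WT libraries. WT library 2 stood above and the other WT libraries below the Pth1rΔNLS range, so the log2 fold change of 0.59 (SE 0.43, limma adjusted p = 0.422) became 1.14 with an adjusted p of 0.00144 without WT 2. That fit leaves out the WT library that went the other way, so it adds no support for a rise of Eif5. Its transcript Eif5-201 had 0, 33.8 and 0 FPKM in WT libraries, and an exact 0 can be a failed division of reads between transcripts. Eif6 (0.24), Eif5b (0.08) and Eif1ad (0.02) had values above 0 and Eif1b (-0.15) below, and none of them was called.

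Genes whose symbols begin with Eif2, leaving out Eif2ak3, showed 1 change in 13 (7.69%, against 17.3% of all tested genes). They cover eIF2, eIF2B and eIF2 kinases, and also Eif2a and Eif2d, whose products are not eIF2 subunits. Eif2b2, the beta subunit of eIF2B, the exchange factor that recharges eIF2 with GTP (ENSMUSG00000004788.11, chr12:85219481-85226628), had 9.86, 7.97 and 8.04 FPKM in Pth1rΔNLS libraries, against 10.8, 14.6 and 13.9 FPKM in WT libraries. Pth1rΔNLS library 1 came near WT library 1, and Eif2b2 had a log2 fold change of -0.55 (SE 0.14, limma adjusted p = 0.0421). The call held without WT 1 (adjusted p = 0.0282) and was lost in the other fits that left out 1 library (adjusted p 0.0527 to 0.129). The other 4 eIF2B subunits did not pass, with log2 fold changes of -0.03 for Eif2b1, -0.10 for Eif2b3, 0.11 for Eif2b4 and -0.07 for Eif2b5. Eif2s1, the alpha subunit of eIF2 and the site of stress phosphorylation, had 40.7, 38.5 and 36.9 FPKM in Pth1rΔNLS libraries, against 34.6, 41.6 and 36.3 FPKM in WT libraries. The log2 fold change was 0.05 (95% interval -0.17 to 0.26, limma adjusted p = 0.765). Eif2s2, the beta subunit, had 147, 144 and 129 FPKM in Pth1rΔNLS libraries, against 148, 161 and 145 FPKM in WT libraries (adjusted p = 0.415). Eif2s3x, the gamma subunit, had 51.5, 49.6 and 51.3 FPKM in Pth1rΔNLS libraries, against 52.8, 56.0 and 52.0 FPKM in WT libraries (limma adjusted p = 0.470). The 3 subunits of eIF2 thus stood at unlike levels, with Eif2s2 the highest, in both genotypes.

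The eIF2 kinases were not called. Eif2ak1, the heme-regulated kinase, had 12.0, 12.5 and 12.4 FPKM in Pth1rΔNLS libraries, against 10.7, 11.7 and 11.4 FPKM in WT libraries, which did not overlap (limma adjusted p = 0.373). Eif2ak4, the kinase that senses uncharged tRNA, had a log2 fold change of 0.06 (95% interval -0.18 to 0.31), and Eif2ak2, the kinase of double-stranded RNA, had 0.05 (95% interval -0.17 to 0.28). Outside the chosen genes, Eif2ak3, the kinase of endoplasmic reticulum stress, had 8.47, 8.84 and 8.73 FPKM in Pth1rΔNLS libraries, against 8.78, 9.31 and 10.1 FPKM in WT libraries (adjusted p = 0.487). Transcript levels do not measure kinase activity or eIF2 phosphorylation. Eif2d, a factor known to work outside the eIF2 complex, had a log2 fold change of -0.27 (adjusted p = 0.257). Eif2a, whose product is distinct from the eIF2 subunits, was uneven, with 22.8, 16.3 and 6.57 FPKM in Pth1rΔNLS libraries, against 26.6, 27.8 and 3.11 FPKM in WT libraries.

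Of the 14 eIF3 genes, whose products form the large scaffold on the small ribosomal subunit, Eif3d rose and none fell (7.14% called, against 17.3% of all tested genes). Eif3d, a subunit that can itself bind the cap (ENSMUSG00000016554.9, chr15:77958998-77970813), had 42.9, 45.2 and 44.1 FPKM in Pth1rΔNLS libraries, against 37.0, 36.1 and 37.8 FPKM in WT libraries. The ranges were narrow and apart, with a log2 fold change of 0.25 (SE 0.06, limma adjusted p = 0.0371). The call was lost without any 1 library (adjusted p 0.0688 to 0.128). The antisense gene Gm17638 overlaps Eif3d by 2151 bases and was not among the named genes of the deposited table. The sources used here do not say whether strand was used in the counting. Eif3e, another subunit, was the least even, with 42.1, 132 and 23.2 FPKM in Pth1rΔNLS libraries, against 170, 80.8 and 160 FPKM in WT libraries. The ranges overlapped through library 2 of each genotype, and the log2 fold change came to -1.34 (SE 0.63, limma adjusted p = 0.209), or -2.02 with an adjusted p of 0.0391 without Pth1rΔNLS 2. The latter fit leaves out the Pth1rΔNLS library that lay inside the WT range, so it adds no support for a fall of Eif3e. Eif3a, the largest subunit, had 137, 155 and 151 FPKM in Pth1rΔNLS libraries, against 149, 128 and 137 FPKM in WT libraries (adjusted p = 0.499). The other 11 genes of the complex were not called, and their log2 fold changes lay between -0.10 (Eif3m) and 0.17 (Eif3b). Among them are the near-identical copies Eif3j1 and Eif3j2, between which the authors' counting could divide reads.

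The eIF4 group holds the cap-binding protein, its helicase, its scaffold and its inhibitors. Of 14 tested genes, Eif4e2 rose and Eif4a2 fell (14.3% called, against 17.3% of all tested genes). Eif4a2, a helicase of the eIF4A family (ENSMUSG00000022884.15, chr16:23107444-23114136), had 53.7, 49.4 and 50.03 FPKM in Pth1rΔNLS libraries, against 68.3, 69.0 and 67.0 FPKM in WT libraries. Its means were 51.1 ± 2.34 FPKM in Pth1rΔNLS libraries and 68.1 ± 0.983 FPKM in WT libraries (SD, n = 3 each), with a log2 fold change of -0.41 (SE 0.06, 95% interval -0.56 to -0.26, limma adjusted p = 0.00753). The call held without each library in turn (adjusted p 0.0175 to 0.0383). Rfc4, on the other strand, overlaps Eif4a2 by 194 bases, and reads there cannot be told apart without strand. Its paralog Eif4a1, the main helicase of the cap complex, had 141, 152 and 153 FPKM in Pth1rΔNLS libraries, against 130, 101 and 143 FPKM in WT libraries, with a log2 fold change of 0.27 (SE 0.13, limma adjusted p = 0.222). The log2 fold changes of these paralogs thus had opposite signs, and only that of Eif4a2 passed the threshold; the difference between them was not tested. Eif4e2, a cap-binding protein known as a repressor of translation (ENSMUSG00000026254.17, chr1:87213914-87240488), had 44.6, 39.9 and 41.9 FPKM in Pth1rΔNLS libraries, against 33.1, 33.6 and 31.8 FPKM in WT libraries. The ranges were apart, with a log2 fold change of 0.35 (SE 0.07, limma adjusted p = 0.0181). The call was lost without Pth1rΔNLS 1 (adjusted p = 0.0602), Pth1rΔNLS 3 (0.0623), WT 1 (0.0537) or WT 3 (0.0691) and held without Pth1rΔNLS 2 or WT 2. Its most abundant listed transcript, Eif4e2-204, had 36.3, 19.0 and 31.0 FPKM in Pth1rΔNLS libraries, against 14.9, 19.2 and 16.9 FPKM in WT. Those ranges overlapped (limma adjusted p = 0.217 over transcripts). Eif4e2-202 lay the other way, with 3.90, 3.75 and 5.76 FPKM in Pth1rΔNLS libraries, against 7.92, 7.39 and 7.48 FPKM in WT, and was not called. The rise of Eif4e2 thus describes the sum of its 8 listed transcripts.

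Eif4e, the main cap-binding protein, averaged 25.3 ± 5.78 FPKM in Pth1rΔNLS libraries and 24.4 ± 3.90 FPKM in WT libraries (SD, n = 3 each; limma adjusted p = 0.908). Eif4g1, the scaffold that holds it, had 53.9, 61.8 and 62.1 FPKM in Pth1rΔNLS libraries, against 28.03, 25.3 and 53.2 FPKM in WT libraries. The ranges did not overlap, but WT library 3 came near the Pth1rΔNLS libraries, and the log2 fold change came to 0.80 (SE 0.27, limma adjusted p = 0.0947). Without WT 3 it was 1.12 with a limma adjusted p of 0.00544. That fit leaves out the WT library nearest to the Pth1rΔNLS libraries, so it adds no support. The most abundant listed transcript, Eif4g1-202, had 39.9, 46.8 and 46.1 FPKM in Pth1rΔNLS libraries, against 15.6, 0.238 and 39.9 FPKM in WT. Eif4g1-203 had 0, 17.1 and 0.579 FPKM in WT libraries. A value at or near 0 can be a failed division of reads between transcripts, so the difference of Eif4g1 is uncertain. Of the other scaffolds, Eif4g2 (0.17) and Eif4g3 (0.18) had log2 fold changes above 0 and were not called. Eif4ebp1, the inhibitor of eIF4E that mTORC1 switches off and that is itself an ATF4 target (chr8:27260329-27276674), had 16.7, 19.8 and 17.9 FPKM in Pth1rΔNLS libraries, against 18.5, 17.2 and 20.2 FPKM in WT libraries. The ranges lay over each other and the log2 fold change was -0.04 (95% interval -0.27 to 0.20, limma adjusted p = 0.838). Its relative Eif4ebp2 had a log2 fold change of 0.11 (adjusted p = 0.503). Eif4ebp3 lay below the filter, with 0.376, 0.308 and 0.242 FPKM in Pth1rΔNLS libraries, against 0.190, 2.38 and 0.670 FPKM in WT libraries. The remaining genes of the group, Eif4a3, Eif4b, Eif4e3, Eif4enif1 and Eif4h, were not called, with log2 fold changes between -0.15 (Eif4enif1) and 0.09 (Eif4b).

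Eif5a, whose product carries the hypusine residue and helps ribosomes past proline runs and other stalling sites, had the highest mean of all members. It had 253, 290 and 254 FPKM in Pth1rΔNLS libraries, against 255, 221 and 264 FPKM in WT libraries, with a log2 fold change of 0.11 (95% interval -0.13 to 0.34, limma adjusted p = 0.516). Eif5a2, its scarcer relative, had 5.04, 4.44 and 4.23 FPKM in Pth1rΔNLS libraries, against 4.56, 6.21 and 4.77 FPKM in WT libraries (adjusted p = 0.528). Neither gene was called, and at an unadjusted limma p under 0.05 the count of these genes was also 0. Beneath the even sum of Eif5a, its 12 listed transcripts took very different shares from library to library. Eif5a-203 had 159, 183 and 0 FPKM in Pth1rΔNLS libraries, against 0, 0 and 169 FPKM in WT libraries. Eif5a-207 had 5.48, 0.377 and 141 FPKM in Pth1rΔNLS libraries, against 10.8, 1.23 and 1.38 FPKM in WT libraries. Eif5a-210 reached 199 FPKM in WT library 2 alone, and lay between 71.2 and 87.8 FPKM in the other libraries of both genotypes.

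**Figure D4:**
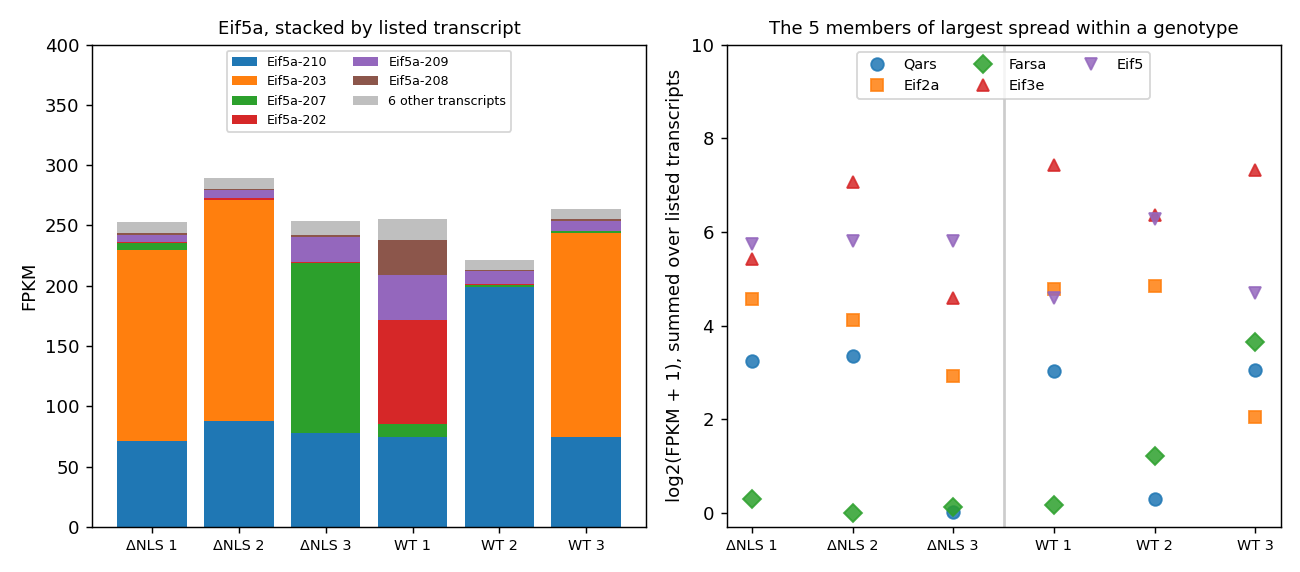
Left, FPKM of Eif5a in each library as bars stacked by listed transcript, Pth1rΔNLS libraries left of WT libraries; the bars end between 221 and 290 FPKM while the colours inside change from library to library. Right, log2(FPKM + 1) of the 5 members of largest spread within a genotype, 1 point per library; Qars, Farsa and Eif2a each fall near the bottom in libraries that differ from gene to gene.

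The same was looked for in the other members. Of the 88, 46 had 1 listed transcript and 42 had several, 188 transcripts in all. Some 32 of these transcripts, but only 1 gene, Farsa, were at 0 in some library. Of the 155 member transcripts tested on their own, 3 were lower and none higher by limma, namely Eif1-201, Mthfd2-201 and Pycr1-201, which is 1.94% against 5.21% of all 17281 tested transcripts. At the level of genes the median spread within a genotype was 0.124 on the log2(FPKM + 1) scale (SD), against 0.156 for all tested genes. The 5 members above the 95th percentile of all genes, 0.561, were Qars (1.75), Eif2a (1.28), Farsa (1.27), Eif3e (0.979) and Eif5 (0.672). None of these 5 was called.

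Other genes of the same pathways were taken from lists of textbook members. Among 15 listed genes of the ATF4 and stress response outside the chosen 16, 2 rose and 2 fell, or 26.7%, against 17.3% of all tested genes, with a median log2 fold change of 0.02. Atf3, a transcription factor induced by ATF4 and by many other signals, rose, with 34.8, 38.8 and 39.1 FPKM in Pth1rΔNLS libraries, against 22.8, 20.6 and 20.9 FPKM in WT libraries (log2 fold change 0.78, SE 0.08, limma adjusted p = 0.00165). Slc7a11, the cystine importer, rose as well, with 2.63, 2.76 and 2.82 FPKM in Pth1rΔNLS libraries, against 1.39, 1.58 and 1.27 FPKM in WT libraries (log2 fold change 0.64, adjusted p = 0.0104). Both are known to respond to inflammatory or oxidative signals too, and macrophages are known to express both; 9 of 12 macrophage markers were higher in these libraries, and their part was not tested. Vegfa, an angiogenic growth factor, fell (log2 fold change -0.32, limma adjusted p = 0.0213), and so did Nupr1, a stress-induced chromatin protein named here after its values were seen (-0.55, adjusted p = 0.0451). Atf3 and Slc7a11 kept their calls without each library in turn. Vegfa kept its call without WT 2 and lost it in the other fits (adjusted p 0.0504 to 0.0729), and Nupr1 kept its call without Pth1rΔNLS 3 and lost it in the others (0.0586 to 0.136). Ddit3, which encodes the stress factor CHOP, had 20.3, 16.1 and 16.8 FPKM in Pth1rΔNLS libraries, against 13.4, 18.0 and 17.3 FPKM in WT libraries (limma adjusted p = 0.603). The ATF4 targets in these libraries thus did not all move one way.

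Amino acid transporters, which ATF4 is also known to induce, gave 1 higher and 3 lower of 10 tested, with a median log2 fold change of -0.28. Over all tested genes 6.94% were higher and 10.4% lower, and with 10 genes these counts stand only as a description. Macrophage markers were higher and stromal and osteoblast markers lower in the same libraries, and their part was not tested. Slc7a5, the light chain of the leucine transporter, had 12.5, 13.8 and 13.4 FPKM in Pth1rΔNLS libraries, against 19.6, 18.9 and 19.2 FPKM in WT libraries. The gap between the ranges was wider than the spread in either genotype (log2 fold change -0.51, SE 0.07, limma adjusted p = 0.00605), and the call held without each library in turn. Its partner Slc3a2 had 141, 154 and 145 FPKM in Pth1rΔNLS libraries, against 138, 113 and 140 FPKM in WT libraries, and was not called (adjusted p = 0.306). Slc1a4, a carrier of alanine, serine and cysteine, had 6.77, 6.96 and 8.74 FPKM in Pth1rΔNLS libraries, against 13.5, 11.6 and 12.3 FPKM in WT libraries (log2 fold change -0.67, limma adjusted p = 0.0128). Slc38a2, a carrier of small neutral amino acids, had 29.5, 27.1 and 30.3 FPKM in Pth1rΔNLS libraries, against 37.0, 40.3 and 38.4 FPKM in WT libraries (log2 fold change -0.40, adjusted p = 0.0140). Without Pth1rΔNLS 2 the adjusted p was 0.0520 for Slc1a4 and 0.0540 for Slc38a2, and without WT 3 it was 0.0533 for Slc38a2. The higher gene, Slc38a7, a lysosomal glutamine exporter named after its values were seen, had a log2 fold change of 0.38 (limma adjusted p = 0.0196), and its call was lost without any 1 Pth1rΔNLS library (0.0530 to 0.0729) or without WT 3 (0.0588).

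**Figure D5:**
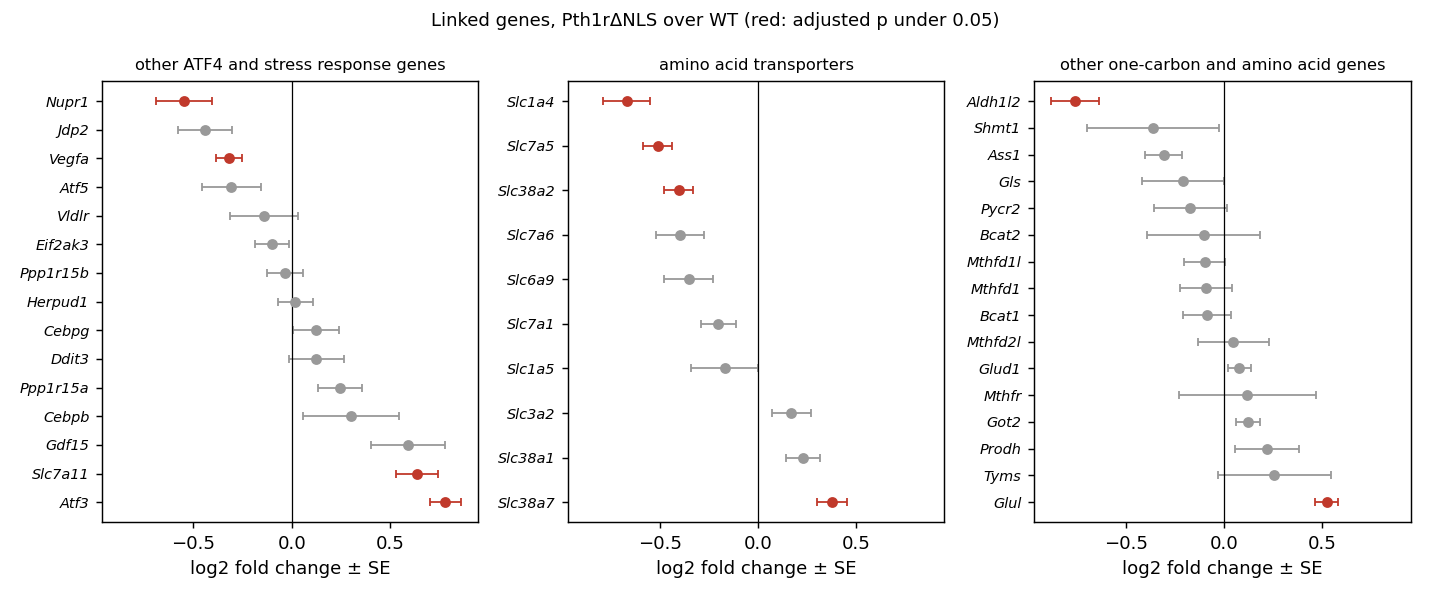
Log2 fold changes, Pth1rΔNLS over WT on the log2(FPKM + 1) scale, with their limma standard errors as bars, for 15 other ATF4 and stress response genes, 10 amino acid transporters and 16 other one-carbon and amino acid genes; red marks an adjusted p under 0.05. In the left panel Atf3 (0.78) and Slc7a11 (0.64) stand to the right and Nupr1 (-0.55) to the left, and in the middle panel 3 of the 4 red genes lie left of 0.

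Of 16 other one-carbon and amino acid genes, 1 rose and 1 fell, or 12.5%, against 17.3% of all tested genes. Aldh1l2, a mitochondrial enzyme of folate oxidation that works in the same pathway as Mthfd2, had 2.60, 1.85 and 2.17 FPKM in Pth1rΔNLS libraries, against 4.399, 4.32 and 4.48 FPKM in WT libraries (log2 fold change -0.76, SE 0.12, limma adjusted p = 0.00834). Glul, glutamine synthetase, rose, with 54.7, 55.7 and 55.2 FPKM in Pth1rΔNLS libraries, against 39.2, 38.2 and 37.1 FPKM in WT libraries (log2 fold change 0.52, adjusted p = 0.00234). Glul and Aldh1l2 kept their calls without each library in turn.

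Other genes of the translation apparatus are given by their counts, beside which 17.3% of all tested genes were called; several of these lists are too short for a share to be read. Mitochondrial synthetases, which charge the tRNAs of that organelle, had 0 called by limma of 16 tested, with 1 higher and 1 lower at an unadjusted p under 0.05. The 3 scaffold genes of the multi-synthetase complex, Aimp1, Aimp2 and Eef1e1, had 0 called, and 0 at an unadjusted limma p under 0.05. Of 11 elongation and termination factors 1 fell, Gspt2, the scarcer release factor GTPase, with 1.39, 1.29 and 1.41 FPKM in Pth1rΔNLS libraries, against 3.37, 2.504 and 2.499 FPKM in WT libraries (log2 fold change -0.68, limma adjusted p = 0.0162), a call lost without any 1 Pth1rΔNLS library (0.0508 to 0.0612). Of 89 tested ribosomal protein genes none rose and 2 fell, Rpl39l (log2 fold change -0.74) and Rpl9-ps6 (-0.44), a paralog of Rpl39 and an annotated pseudogene copy. The first call was lost without WT 1 (adjusted p = 0.0648) or WT 3 (0.0574), and the second without any 1 library (0.0645 to 0.145). The ribosomal protein genes summed to 20333 to 22574 FPKM in Pth1rΔNLS libraries and 21894 to 22964 FPKM in WT libraries, and the sums overlapped. Of 23 mTORC1 genes, Rragd rose and Rheb fell. Rheb, the GTPase that activates the complex, had 76.6, 80.9 and 81.2 FPKM in Pth1rΔNLS libraries, against 111, 100.2 and 105 FPKM in WT libraries (log2 fold change -0.40, SE 0.07, limma adjusted p = 0.00990). Rragd, a GTPase that brings it to the lysosome, had 4.95, 5.75 and 5.30 FPKM in Pth1rΔNLS libraries, against 3.47, 3.41 and 3.23 FPKM in WT libraries (log2 fold change 0.53, limma adjusted p = 0.0141), and its call was lost without Pth1rΔNLS 2 (0.0598), Pth1rΔNLS 3 (0.0506) or WT 3 (0.0557).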

How the data were processed

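RNA-seq of 6 libraries was analysed, 3 Pth1rΔNLS and 3 WT, grouped by the genotype in the labels. Per the submitters' processing notes, HISAT2, StringTie and the build mm10 were used; their versions and settings, and any use of strand, are not given in the labels. The deposited values are taken as FPKM, which the authors' header does not name; weighted by transcript length, each library's values reached 75.0 to 78.1% of what FPKM of all mapped fragments add up to. Read depth is unknown, so no counting interval is given, and FPKM share 1 total per library. Of 23351 transcripts, 23300 were named by identifier in GENCODE M21, the 51 others holding at most 0.117% of FPKM. FPKM were summed per gene, and 10905 genes averaging 1 FPKM or more were fitted with limma 3.58.1 in R 4.3.3 (eBayes with trend) on log2(FPKM + 1), two-sided, Benjamini-Hochberg adjusted over all of them, threshold 0.05; the pseudocount of 1 understates changes of low genes. The fit was tested on simulated data drawn independently for each gene, without library effects. That run does not bear on calls that rest on 1 library. Errors beside FPKM are SD over 3 libraries, SE is limma's moderated standard error, and intervals are 95% from limma. Tables and plots used Python 3.11.15, pandas 2.3.3, numpy 2.4.6 and matplotlib 3.10.9. The members and lists were chosen with earlier results of these data known. Atf4, Asns, Eif2s1 and Eif4ebp1 were always named; per role, up to 6 members past the threshold of smallest p, or the 2 of highest mean where fewer than 2 passed; then members at 0, below the filter, or whose call or direction depends on a setting; and up to 3 past the threshold per linked list. Members named beside these, including Trib3, Sesn2, Psat1, Psph, Eif2ak1, Eif4e and the ranges of other members, complete a role and were chosen with values seen. Promoter sequences are from RefSeq. Alternatives covered transcript choice, pseudocount, filter, scaling, variance model, a replicate block and left-out libraries. One gene of a linked list is not reported here.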

Additional observations from a re-analysis of the deposited data

How the results depend on the processing

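Counts are of 16 ATF4 class genes, 20 synthetases and 51 initiation factor genes, with 7, 1 and 4 lower and 0, 0 and 2 higher as reported. With the highest listed transcript only, 4 ATF4 class genes and 2 initiation factor genes were lower and 1 was higher, and a filter of mean 5 FPKM left 4 ATF4 class genes lower, the other 3 lying below it. Scaling to TPM, or no variance trend, left 1 initiation factor gene higher. Scaling to TPM without mitochondrially encoded genes, equal medians and quantile normalization each left 2 initiation factor genes lower, quantile normalization left 0 synthetases lower, and array weights gave 3, adding Gars (limma adjusted p = 0.0348) and Nars (0.0490). Leaving out 1 library gave 1 to 4 ATF4 class genes lower, 1 to 2 initiation factor genes lower with 0 to 2 higher, and 0 to 1 synthetases lower. Without both replicates 1, the libraries of extreme mitochondrial share, 1 ATF4 class gene, 1 initiation factor gene and 0 synthetases were lower and 0 initiation factor genes higher. Deviations of same-numbered libraries from their genotype means correlated at -0.19, -0.07 and 0.07. For no replicate number were the libraries each other's best match across genotypes. These values gave no sign of pairing by number, but they do not settle whether the samples were paired. The replicate block left 1 ATF4 class gene, 0 synthetases and 0 initiation factor genes lower and 0 higher, and 792 of all genes called (7.26%). No ATF4 class gene and no synthetase was higher under any alternative. Pycr1 was called under all 18 alternatives that tested it, with adjusted p up to 0.0477. Directions turned, none past the threshold, with the highest transcript only for Asns (0.32), Iars (0.19), Sars (-0.11), Eif2s2 (0.049) and Eif5a (-0.40), and without both replicates 1 for Eif2s1 (-0.044), Eif4ebp1 (0.013) and Phgdh (0.12). Leaving out 1 library moved the log2 fold change of Eif2s1 between -0.0074 and 0.12, of Eif4ebp1 between -0.099 and 0.022, of Got1 between -0.017 and 0.22, and of Phgdh between -0.25 and 0.011. Of 47 other tested members, none was called under any alternative and 27 turned sign under at least 1. Scaling moved the median of all genes to between -0.04 and 0.03. Depth in reads is unknown, so what it limits could not be computed. Groups of 3 libraries were too small for a test of outlying samples.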
